A study of Morchella sextelata with 15 samples.

Results

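S-metolachlor and pendimethalin, herbicides of different chemical classes, were compared by their effect on the transcriptome of Morchella sextelata mycelium, a black morel and ascomycete grown as a crop. The comparison took the 3 S-metolachlor and the 3 pendimethalin libraries of a series of 15, with the 3 libraries of herbicide-free mycelium as the reference level. Of the 20602 transcripts in the deposited tables, 19229 were kept. The other 1373 were left out because they had at least 20 counts in S-metolachlor replicate 1, at least 4 times the count in replicate 2, and a mean under 2 over the libraries of all other groups. Each result was obtained with and without pendimethalin replicate 3.

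All groups were labelled as wild-type mycelium. The medium was potato dextrose agar, kept at 20 °C over 5 days, and the herbicides were applied at 10 times their usual rate, whereas the control medium held none. S-metolachlor and pendimethalin doses were thus matched relative to the usual rate of each and not by concentration, so herbicide and dose cannot be told apart. The labels do not say whether the 3 libraries of a group came from separate cultures, so p-values measure only the spread between these libraries, which may be technical.

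Pendimethalin is a dinitroaniline. Herbicides of that class bind tubulin in plants and block the assembly of microtubules. S-metolachlor is a chloroacetanilide, a class that blocks the elongases that make very-long-chain fatty acids in plants. In fungi, microtubules carry vesicles and nuclei along the growing hypha, and very-long-chain fatty acids are part of sphingolipids. The transcripts carry assembly names only, and none was found among the 13182 entries of the reference gene table. Tubulins, elongases, cytochrome P450s, transporters and the other groups listed for this tissue could therefore not be counted, and the marker genes of mycelium could not be checked. The transcripts are described below by level, by size of difference and by their place relative to the control.

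Library totals were alike, at 23571506 to 24053546 expected counts with S-metolachlor, 24071293 to 24766457 with pendimethalin and 23921235 to 24309184 in control. The S-metolachlor libraries resembled one another more closely than the pendimethalin libraries did. Spearman correlations across transcripts ranged from 0.9746 to 0.9810 within S-metolachlor and from 0.923 to 0.954 within pendimethalin, with the lowest values in the pairs that held pendimethalin replicate 3. Between the herbicides they ranged from 0.837 to 0.887 over 9 pairs. Pendimethalin replicate 3 was at 0.936 to 0.941 with the control libraries, whereas replicates 1 and 2 were at 0.869 to 0.934 and 0.880 to 0.925. Replicate 3 therefore stood apart from its group on the side of the control. Transcripts are not independent replicates, so these correlations only describe the libraries. The biological coefficient of variation, the spread between libraries beyond counting error, was 0.236 with S-metolachlor, 0.549 with pendimethalin and 0.415 in control. It was 0.447 for pendimethalin without replicate 3. The test described next shares its estimate of the spread among the groups.

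S-metolachlor and pendimethalin mycelium differed in 5605 of 17371 transcripts tested, or 32.3% (edgeR quasi-likelihood test, Benjamini-Hochberg adjusted p under 0.05). The differences ran both ways, with 2721 transcripts (15.7%) higher with S-metolachlor and 2884 (16.6%) lower. Without pendimethalin replicate 3, 5222 of 18020 transcripts were called, or 29%, with 2557 higher (14.2%) and 2665 lower (14.8%). The direction split differed between alternatives. Higher transcripts made up 48.5% of the calls here, and 59.6% (3689 of 6191) in limma on log2(FPKM + 1) with no filter on low values. It was 54.5% in limma on log2(FPKM + 0.1) and 52.3% in limma voom on the counts. The fit at 59.6% changed the unit, the test, the added constant and the filter at once. With the filter kept, limma on log2(FPKM + 1) gave 58.2%, and edgeR with no filter gave 48.4%. Only the added constant differed between the fits at 54.5% and 58.2%. The parts of the unit and the test in the split were not tested separately. The median log2 difference over all tested transcripts was -0.01, and 0.05 without replicate 3.

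Many of the differences were large. Of the called transcripts, 2177 were at least 2-fold higher with S-metolachlor and 2044 at least 2-fold lower. At least 16-fold differences were found in 543 higher and 353 lower transcripts, and at least 64-fold differences in 202 and 122. Without pendimethalin replicate 3 these numbers were 626 and 309 at 16-fold, and 310 and 104 at 64-fold. The excess of higher over lower transcripts at these sizes was thus greater without the replicate. These sizes are fitted values. For transcripts with few or no fragments in a group they depend on a small constant added in the fit. Leaving out a library can leave such a group without fragments, and the part of this in the excess was not tested. In a test against a 2-fold difference rather than against 0, edgeR called 1936 transcripts, and 1693 without replicate 3.

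A transcript that was not called was not thereby shown to be alike under the herbicides. The 95% interval of the difference lay within 2-fold either way for 3938 of 17367 transcripts with an interval, or 22.7%, and its median half-width was 0.94 on the log2 scale. All S-metolachlor libraries lay above or all below the pendimethalin libraries in 8750 tested transcripts (50.4%) and in 5412 called ones (96.6%). The comparison called 32.3% of all transcripts tested.

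**Figure D1:**
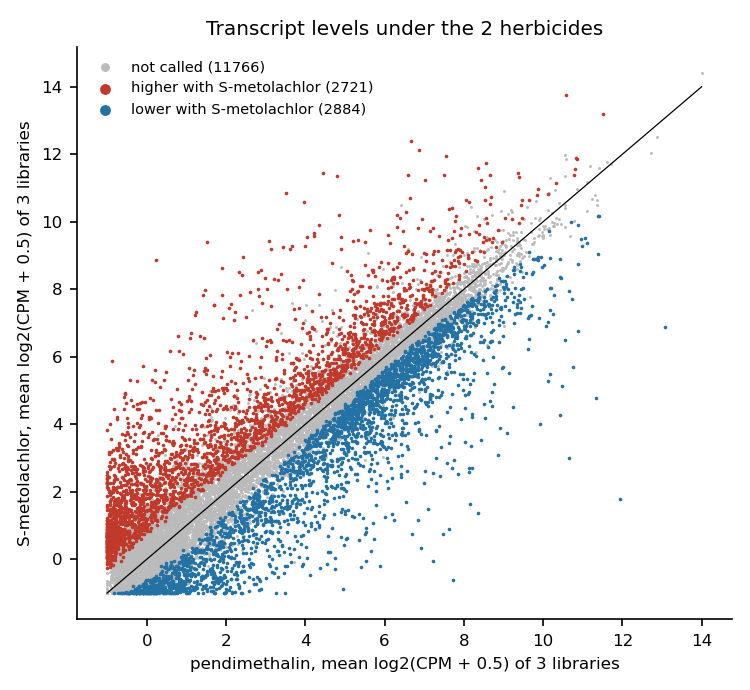
Mean transcript level with pendimethalin (horizontal axis) and S-metolachlor (vertical axis), each as mean log2(CPM + 0.5) of 3 libraries, for the 17371 transcripts tested. Red points mark the 2721 transcripts called higher with S-metolachlor, blue points the 2884 called lower, grey points those not called, and the diagonal marks equal levels. In the lowest of 4 level classes 614 transcripts are higher and 238 lower, and in the highest 555 and 1223.

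The direction of the difference moved with transcript abundance. The transcripts were divided into 4 equal classes by mean CPM, the TMM-scaled count relative to library size, over all 15 libraries. In the lowest class, from 0.105 to 0.888 CPM, 614 transcripts were higher with S-metolachlor and 238 lower. In the highest class, from 41.8 to 13825 CPM, 555 were higher and 1223 lower. Called transcripts made up 19.6% of the lowest class and 40.9% of the highest. Called transcripts of low level were thus mostly higher with S-metolachlor, and called abundant ones mostly lower. A transcript of the lowest class could pass the filter on low counts through a single group in which it was high. The part of this filter in the counts of that class was not tested.

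The S-metolachlor libraries also held more kinds of transcript. Of the 19229 kept transcripts, 18238 ± 101 (SD, n = 3) had counts with S-metolachlor, 17868 ± 38.1 with pendimethalin and 17754 ± 111 in control. Every S-metolachlor library, at 18152 to 18349 transcripts, lay above every pendimethalin library, at 17824 to 17891, and above every control library, at 17634 to 17853. The exact two-sided permutation test gave p = 0.1 for S-metolachlor against pendimethalin and against control, the smallest value that 3 against 3 libraries allow. The S-metolachlor totals were not the larger ones, as given above. The exclusion rule took out only transcripts with at least 20 counts in S-metolachlor replicate 1. Of the 1373 left out, 719 had counts in replicate 2 and 1038 in replicate 3. Whether fainter transcripts of this kind remained among those kept and raised the S-metolachlor numbers was not tested. At the other end, 104 tested transcripts had 0 counts in all 3 pendimethalin libraries, and 92 of these had counts in all 3 S-metolachlor libraries. In the opposite direction, 126 transcripts had 0 counts in all 3 S-metolachlor libraries and 77 of them had counts in all 3 with pendimethalin.

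Among the most abundant transcripts of untreated mycelium, chosen from the control libraries alone, most of those called were lower with S-metolachlor than with pendimethalin. Of the 100 with the highest mean FPKM in control, a level per transcript length, 51 were called, 44 of them lower with S-metolachlor and 7 higher. Over all transcripts tested, 16.6% were called lower and 15.7% higher, and in the highest level class 1223 of 4343 were lower and 555 higher. The median log2 difference of the 100 was -0.78, against -0.01 over all transcripts. Without pendimethalin replicate 3, 48 of the 100 were called, 39 lower and 9 higher, with a median of -0.64. Chosen from the trifluralin libraries, which neither side of the comparison holds, the 100 most abundant gave 45 lower and 7 higher calls, and chosen from acetochlor 35 and 10. Control correlated more with pendimethalin (median Spearman 0.925) than with S-metolachlor (0.825). The trifluralin and acetochlor means were nearer to pendimethalin in 77.1% and 70.1% of all tested transcripts. A choice by high level in these groups thus favours pendimethalin, and the part of this in the split was not tested.

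The share of summed FPKM that the most abundant transcripts held depended on the group they were chosen from. The 100 chosen from control held 17.1, 18.0 and 22.2% in pendimethalin replicates 1 to 3 and 14.8, 17.5 and 15.6% with S-metolachlor. The herbicides overlapped, since S-metolachlor replicate 2 lay above pendimethalin replicate 1. The same 100 held 25.2 to 32.2% in the control libraries, but these values chose them and give no comparison with the herbicides. The 100 chosen from trifluralin held 20.1, 20.4 and 20.3% with pendimethalin, 14.2, 16.3 and 15.3% with S-metolachlor, and 21.5, 21.03 and 21.4% in control. In that set all S-metolachlor libraries lay below all pendimethalin libraries, and all pendimethalin libraries below all control libraries. The 100 chosen from acetochlor held 15.5 to 17.9% in the S-metolachlor libraries, 16.9 to 21.2% in those of pendimethalin, which overlapped them, and 20.6 to 23.4% in control. Over the 500 most abundant transcripts of control, 226 were called lower with S-metolachlor and 35 higher, and their shares were 32.0 to 35.1% with S-metolachlor and 37.9 to 44.4% with pendimethalin.

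The called transcripts carried a large part of the RNA measured. The 2721 transcripts called higher held 31.9, 29.9 and 30.3% of the expected counts in the S-metolachlor libraries and 9.04, 8.55 and 8.87% in the pendimethalin libraries. The 2884 called lower held 11.1, 12.02 and 11.5% with S-metolachlor and 32.8, 32.5 and 31.3% with pendimethalin. The libraries of these groups chose the transcripts, so the values describe the calls and are no test of them. The control libraries took no side in this choice. There the higher set held 9.005 ± 0.303% (SD, n = 3) and the lower set 36.1 ± 1.16%. In both sets the control stood on the pendimethalin side. For the higher set, the control range of 8.66 to 9.21% overlapped the pendimethalin range. For the lower set, all control libraries, at 34.8 to 37.1%, lay above all pendimethalin libraries.

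**Figure D2:**
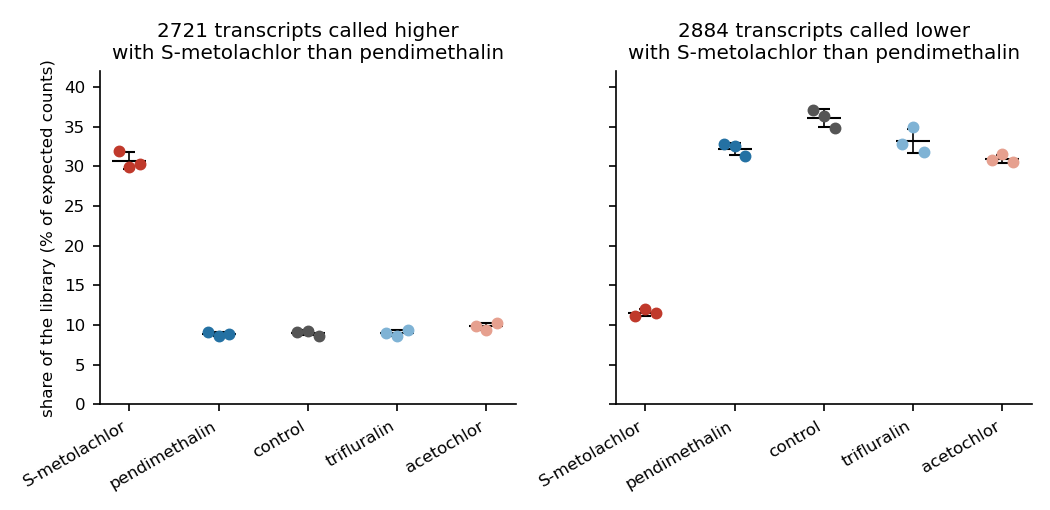
Share of each library's expected counts, in percent, held by the transcripts called higher (left) and lower (right) with S-metolachlor than with pendimethalin. Points are libraries, horizontal lines the mean and bars the SD of 3 libraries. The S-metolachlor libraries hold 29.9 to 31.9% in the higher set, where the pendimethalin libraries hold 8.55 to 9.04%.

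The shares were recomputed with transcripts called without pendimethalin replicate 3. Replicate 3 held 9.86% in the 2557 higher transcripts, beside 8.32 and 7.99% in pendimethalin replicates 1 and 2 and 29.96 to 31.7% with S-metolachlor. It held 29.3% in the 2665 lower transcripts, beside 34.1 and 34.3% in replicates 1 and 2 and 11.6 to 12.4% with S-metolachlor. Replicate 3 had no part in choosing these transcripts. It lay apart from its 2 fellow libraries but much nearer to them than to any S-metolachlor library. The S-metolachlor libraries did have a part in the choice. The control libraries stood on neither side of the comparison but shared in the filter, the scaling and the estimate of the spread. They held 9.02 to 9.32% of the higher and 31.7 to 36.01% of the lower set. The trifluralin libraries held 8.27 to 9.02% and 32.5 to 34.95%. Nearness to pendimethalin replicates 1 and 2 was thus not particular to replicate 3.

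Replicate 3 was also placed transcript by transcript. Among the 2557 higher transcripts, replicate 3 lay below all 3 S-metolachlor libraries in 2387, or 93.4%, against 41.8% of all transcripts tested. It lay above all 3 in 2405 of the 2665 lower transcripts, or 90.2%, against 39.9% of all tested. Positions were set on a scale where 0 was the S-metolachlor mean and 1 the mean of pendimethalin replicates 1 and 2. On this scale the median position of replicate 3 was 0.918 for the higher and 0.807 for the lower transcripts. The control mean was at 0.940 and 0.881. Replicate 3 fell between replicates 1 and 2 in 662 of the higher and 573 of the lower transcripts.

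**Figure D3:**
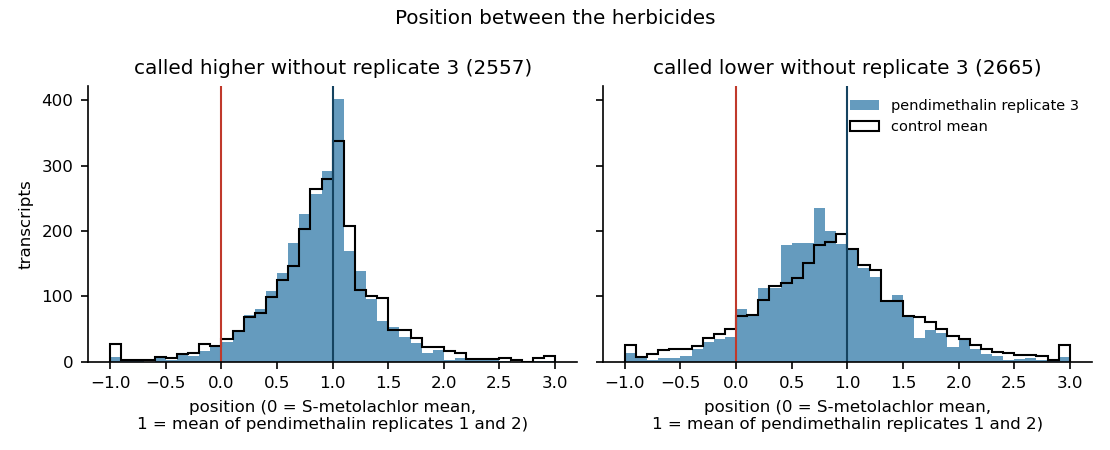
Number of transcripts (vertical axis) by position of pendimethalin replicate 3 (blue bars) and of the control mean (black outline) in log2(CPM + 0.5), for transcripts called higher (left) and lower (right) without replicate 3. The red line at 0 is the S-metolachlor mean and the dark line at 1 the mean of pendimethalin replicates 1 and 2, and values beyond the axis are drawn at its ends. Replicate 3 has a median position of 0.918 on the left and 0.807 on the right.

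Calls with and without replicate 3 shared 4550 transcripts, which are 81.2% of the calls with all libraries and 87.1% of those without it. All 4550 had the same sign. Another 1055 were called only with replicate 3 in the fit. A further 615 were called only without it among transcripts tested in both fits, and 57 that were called without it were not tested with all libraries. The median absolute log2 difference of the shared transcripts was 1.78 with all libraries and 1.79 without replicate 3.

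Against the control, the contrasts of the herbicides differed in extent. With S-metolachlor, 7934 of 17371 transcripts were called against control (45.7%). With pendimethalin, 2292 were called (13.2%), and 3157 of 18020 without replicate 3 (17.5%). Both contrasts use the same control libraries. Same-numbered pendimethalin and control libraries correlated in their deviations from the group means (0.14, 0.18 and 0.50), although the labels pair none. Pendimethalin replicate 1 correlated more with control replicate 2 (0.44) than with control replicate 1. With a replicate block 1772 transcripts were called for pendimethalin, and 2337 without replicate 3. With only pendimethalin and control libraries in the fit, edgeR called 389 without the block and 422 with it. Without replicate 3 that fit called 880, and 0 with the block, where 3014 had an unadjusted p under 0.05. The part of the wider spread among pendimethalin libraries, given above, in the smaller count was not tested.

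Placing the control between the herbicides showed on which side of it each difference lay. Of the 2721 transcripts higher with S-metolachlor, the control mean was nearer to pendimethalin in 2402, or 88.3%. Of the 2884 lower transcripts it was nearer to pendimethalin in 2332, or 80.9%. Among all tested transcripts whose S-metolachlor mean was above or below the pendimethalin mean, called or not, those shares were 73.4% and 66.5%. The shares in the called transcripts ranged from 86 to 89.7% and from 76.9 to 83.6% when each control library was left out in turn, and were 87.9% and 79.7% without pendimethalin replicate 3.

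The control did not always lie between the herbicides. Among the higher transcripts it lay between them in 1261, below both in 1383 and above both in 77. Among the lower transcripts it lay between in 1234, above both in 1488 and below both in 162. The means of S-metolachlor and pendimethalin were thus on the same side of the control mean in 3110 of the 5605 called transcripts, or 55.5%. The share over all tested transcripts was not computed, and both herbicides are set against the same control mean. The 55.5% therefore only describes the order of the means, and a common response to the herbicides was not tested. A stricter order, in which all 3 control libraries lay between all S-metolachlor and all pendimethalin libraries, was found in 429 tested transcripts, of which 402 were called. S-metolachlor was the highest group in 264 of these and pendimethalin in 165.

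Transcripts are named below by a fixed rule, 2 higher and 2 lower for each of 3 properties. These are the largest fold difference, the largest difference in FPKM, and the largest fold difference with all control libraries between those of the herbicides. Each had to be called with and without replicate 3, with no overlap between the herbicides' libraries and at least 10 CPM on average in the higher group, which 2886 transcripts met, and in 246 of these all control libraries lay between those of the herbicides. Values are CPM unless FPKM is stated, and each adjusted p is from edgeR's quasi-likelihood test with Benjamini-Hochberg adjustment. The order of libraries is replicate 1, 2, 3.

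The largest fold differences belonged to transcripts found with one herbicide and nearly absent with the other. TRINITY_DN7510_c0_g2_i1_1 was at 21.2, 9.499 and 12.5 CPM with S-metolachlor and at 0 in all 3 pendimethalin libraries. In control it was at 0.232, 0 and 0.0999 CPM. It was found in all S-metolachlor libraries and barely in any other. Its mean rounded count over the libraries of the other groups was 1.83, under the limit of the exclusion rule. It was kept only because its counts in S-metolachlor replicates 1 and 2, at 535 and 246, were too close for that rule. Whether it is of the kind left out was not tested. Against a floor of 3 fragments over the pendimethalin group, its level was at least 299.7-fold higher with S-metolachlor (edgeR adjusted p = 0.000191), and at least 203-fold higher without replicate 3 (edgeR adjusted p = 0.000555). Its log2 difference from control with S-metolachlor was 6.99 (SE 0.999, edgeR adjusted p = 0.000289).

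TRINITY_DN5579_c0_g2_i1_1 was at 72.9, 39.8 and 67.0 CPM with S-metolachlor, at 0, 0 and 0.164 CPM with pendimethalin, and at 0.0464, 0 and 1.95 CPM in control. The S-metolachlor libraries stood far above all others, and pendimethalin replicate 3 held the only 2 fragments of its group. The ratio was 1272 (95% counting interval 294 to 8797, edgeR adjusted p = 0.000210). Without replicate 3 the transcript was at least 482-fold higher (edgeR adjusted p = 0.000745). Its log2 difference from control was 6.52 with S-metolachlor (SE 1.10, edgeR adjusted p = 0.000500).

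TRINITY_DN12203_c0_g1_i1_3 had the opposite pattern, with 0 counts in all 3 S-metolachlor libraries and 74.5, 29.3 and 0.123 CPM with pendimethalin. The control libraries were at 0.556, 1.72 and 0.2497 CPM. Pendimethalin replicate 3 lay below all control libraries, whereas replicates 1 and 2 lay far above them. The level with S-metolachlor was at least 556-fold lower than with pendimethalin (edgeR adjusted p = 0.00497), and at least 818-fold lower without replicate 3 (edgeR adjusted p = 0.000644). In limma voom with library weights the transcript was not called (adjusted p = 0.0941), and adjusted p ranged from 2.73e-09 to 0.0941 over its 21 alternatives. The log2 difference of pendimethalin from control was 5.33 (SE 1.61, edgeR adjusted p = 0.0506), and 5.89 without replicate 3 (edgeR adjusted p = 0.00696). S-metolachlor was not called against control (edgeR adjusted p = 0.0871).

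TRINITY_DN7825_c0_g1_i2_5 was at 0.238, 0.270 and 0 CPM with S-metolachlor, at 299, 48.5 and 649 CPM with pendimethalin, and at 41.3, 41.3 and 30.2 CPM in control. No library of one group overlapped another group, and the control lay between. The log2 difference was -10.89 (SE 1.07, edgeR adjusted p = 2.01e-05) and -9.98 without replicate 3 (edgeR adjusted p = 2.73e-05), which rests on about 10 fragments in the S-metolachlor group. The transcript differed from control in opposite directions, by -7.74 with S-metolachlor (SE 0.97, edgeR adjusted p = 5.87e-05) and by 3.14 with pendimethalin (SE 0.72, edgeR adjusted p = 0.0144). With only pendimethalin and control in the fit the latter was not called (edgeR adjusted p = 0.0984, and 0.180 with the replicate block).

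**Figure D4:**
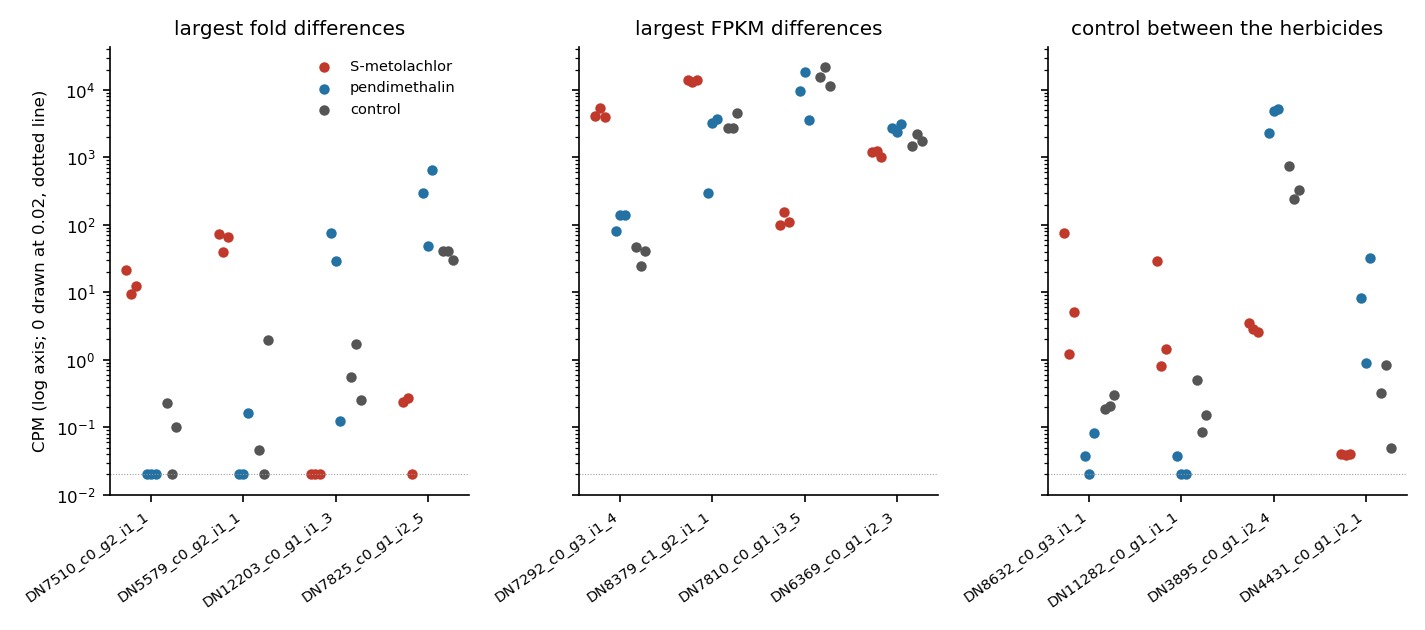
CPM on a log axis of the 12 named transcripts in the S-metolachlor (red), pendimethalin (blue) and control (grey) libraries, each point 1 library, with 0 drawn at the dotted line. The panels hold the largest fold differences, the largest FPKM differences and the largest differences with the control between. S-metolachlor and pendimethalin do not overlap in any of the 12, as the rule required, and S-metolachlor replicate 1 stands far above replicates 2 and 3 for TRINITY_DN8632_c0_g3_i1_1 and TRINITY_DN11282_c0_g1_i1_1.

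The largest differences per length were in transcripts that rank among the most abundant of a group. TRINITY_DN7292_c0_g3_i1_4 had the highest mean FPKM of all kept transcripts with S-metolachlor, at 6721, 8804 and 6255 FPKM. With pendimethalin it was at 139, 216 and 219 FPKM, rank 589, and in control at 64.3, 37.8 and 51.8 FPKM, rank 2119. S-metolachlor was the highest group and control the lowest. The log2 difference between the herbicides was 5.22 (SE 0.64, edgeR adjusted p = 1.00e-04), and 5.35 without replicate 3 (edgeR adjusted p = 0.000584). Against control it was 6.91 with S-metolachlor (SE 0.70, edgeR adjusted p = 1.30e-05) and 1.69 with pendimethalin (SE 0.55, edgeR adjusted p = 0.0605).

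TRINITY_DN8379_c1_g2_i1_1 had rank 3 by mean FPKM with S-metolachlor, at 6006, 5521 and 5750 FPKM. It was at 130, 1313 and 1498 FPKM with pendimethalin and at 964, 1097 and 1501 FPKM in control. Pendimethalin replicate 1 was far below the other libraries, and replicates 2 and 3 lay within the control range. The log2 difference was 2.51 (SE 0.74, edgeR adjusted p = 0.0204), 2.98 without pendimethalin replicate 3 (edgeR adjusted p = 0.0224) and 1.98 without pendimethalin replicate 1 (edgeR adjusted p = 0.0213). With only the libraries of both herbicides in the fit it was not called (edgeR adjusted p = 0.0581), and adjusted p ranged from 0.000943 to 0.0581 over its 22 alternatives. Against control the log2 difference was 2.05 with S-metolachlor (SE 0.73, edgeR adjusted p = 0.0349), and -0.46 with pendimethalin (SE 0.70, edgeR adjusted p = 0.713).

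TRINITY_DN7810_c0_g1_i3_5 was at 20.4, 31.9 and 22.3 FPKM with S-metolachlor, at 2113, 3658 and 725 FPKM with pendimethalin, and at 2775, 4233 and 1849 FPKM in control. It ranked 11 by mean FPKM with pendimethalin and 14 in control, but 4028 with S-metolachlor. Pendimethalin and control overlapped, with pendimethalin replicate 3 the lowest of their libraries. The log2 difference between the herbicides was -6.46 (SE 0.58, edgeR adjusted p = 1.27e-05), and -6.86 without replicate 3 (edgeR adjusted p = 4.24e-06). Against control it was -7.07 with S-metolachlor (SE 0.59, edgeR adjusted p = 4.02e-06) and -0.61 with pendimethalin (SE 0.46, edgeR adjusted p = 0.407).

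TRINITY_DN6369_c0_g1_i2_3 was abundant everywhere, at 1626, 1673 and 1336 FPKM with S-metolachlor, 3858, 3029 and 4124 FPKM with pendimethalin, and 1718, 2826 and 1884 FPKM in control. Both herbicides lay close to control and on opposite sides of it, with the control range above S-metolachlor and below pendimethalin. The difference was small for a named transcript, with a log2 value of -1.26 (SE 0.21, edgeR adjusted p = 0.000751), and -1.15 without replicate 3 (edgeR adjusted p = 0.00290). It was called against control with S-metolachlor, at -0.67 (SE 0.21, edgeR adjusted p = 0.0183), and not with pendimethalin, at 0.59 (SE 0.21, edgeR adjusted p = 0.0764).

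Among the transcripts with the control between the herbicides, both named as higher were far higher in S-metolachlor replicate 1 than in replicates 2 and 3. TRINITY_DN8632_c0_g3_i1_1 was at 75.9, 1.24 and 5.11 CPM with S-metolachlor, at 0.0375, 0 and 0.0821 CPM with pendimethalin, and at 0.185, 0.209 and 0.300 CPM in control. Replicate 1 was far above replicates 2 and 3, although all 3 lay above every other library. The ratio was 585 (95% counting interval 198 to 2813, on 3 fragments with pendimethalin; edgeR adjusted p = 0.000987). Without S-metolachlor replicate 1 it was 67.7 (22.4 to 329, edgeR adjusted p = 0.00291), and without pendimethalin replicate 3 it was 1195 (212 to 46649, edgeR adjusted p = 0.00406). With library weights in limma voom it was not called (adjusted p = 0.270), and adjusted p ranged from 1.11e-09 to 0.270 over its 21 alternatives. Against control, S-metolachlor was called (edgeR adjusted p = 0.00145). Pendimethalin was not (edgeR adjusted p = 0.402, and 0.372 without replicate 3).

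TRINITY_DN11282_c0_g1_i1_1 was at 29.5, 0.811 and 1.44 CPM with S-metolachlor, at 0.0375, 0 and 0 CPM with pendimethalin, and at 0.510, 0.0837 and 0.150 CPM in control. Replicate 1 was again far above replicates 2 and 3. The ratio was 547 (95% counting interval 94.5 to 20928, on 1 fragment with pendimethalin; edgeR adjusted p = 0.00196) and 58.2 without S-metolachlor replicate 1 (9.56 to 2292, edgeR adjusted p = 0.0112). Without pendimethalin replicate 3 it was 371 (64.2 to 14205, edgeR adjusted p = 0.00901). With library weights in limma voom it was not called (adjusted p = 0.221), and adjusted p ranged from 4.73e-07 to 0.221 over its 21 alternatives. Against control, S-metolachlor was called (edgeR adjusted p = 0.00564). Pendimethalin was not (edgeR adjusted p = 0.234, and 0.331 without replicate 3). Both transcripts lay just outside the rule that left transcripts out for replicate 1, since their mean rounded counts over the libraries of the other groups were 2 and 2.25, not under the limit of 2.

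TRINITY_DN3895_c0_g1_i2_4 was at 3.50, 2.82 and 2.56 CPM with S-metolachlor, at 2319, 4942 and 5206 CPM with pendimethalin, and at 748, 244 and 331 CPM in control. No library of one group overlapped another, and the control lay between. The log2 difference between the herbicides was -10.45 (SE 1.002, edgeR adjusted p = 1.74e-05), and -10.25 without replicate 3 (edgeR adjusted p = 4.54e-05). Against control it was -7.22 with S-metolachlor (SE 0.88, edgeR adjusted p = 4.90e-05) and 3.24 with pendimethalin (SE 0.73, edgeR adjusted p = 0.0128). With only pendimethalin and control in the fit the latter had an edgeR adjusted p of 0.0459, and of 0.0764 with the replicate block. By mean FPKM the transcript ranked 32 with pendimethalin, 898 in control and 15004 with S-metolachlor.

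TRINITY_DN4431_c0_g1_i2_1 was at 0.0397, 0.0386 and 0.0399 CPM with S-metolachlor, near 1 fragment per library, at 8.22, 0.886 and 32.3 CPM with pendimethalin, and at 0.324, 0.837 and 0.0499 CPM in control. All pendimethalin libraries lay above all control libraries, by little in the case of replicate 2. Control replicate 3 was also near 1 fragment, at an expected count of 1.37 beside 1.38, 1.38 and 1.41 with S-metolachlor. Its place above the S-metolachlor libraries in CPM rests on rounding and library scaling. In FPKM, control replicate 3, at 0.0373, lay below all 3 S-metolachlor libraries, at 0.0375 to 0.0382. The ratio of pendimethalin to S-metolachlor was 248 (95% counting interval 85.2 to 805, on 4 fragments; edgeR adjusted p = 0.000613). Without replicate 3 it was 85.6 (29.2 to 281, edgeR adjusted p = 0.000915). Against control, the log2 value for pendimethalin was 5.04 (SE 1.02, edgeR adjusted p = 0.00869), and 3.42 without replicate 3 (edgeR adjusted p = 0.0142). With only pendimethalin and control in the fit pendimethalin was not called (edgeR adjusted p = 0.108, and 0.238 with the replicate block). S-metolachlor was not called against control (edgeR adjusted p = 0.111).

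Fitted log2 differences of transcripts with 0 to 3 fragments in a group depend on the constant added and are not given here as bounds. The floor and the counting intervals cover counting error only, with 1 fragment taken as the value typical of transcripts of like length. Reads of near-identical or overlapping transcripts may have been divided between them, so the value of a single transcript is uncertain in that respect. In bulk mycelium, fewer hyphae of a kind and less RNA per hypha cannot be told apart.

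Transcripts near the exclusion limits were examined without a test. The 84 transcripts left out with a mean of 1 to 2 in the other groups had median counts of 113.5, 18.5 and 39.5 in S-metolachlor replicates 1 to 3. The 39 kept with a mean of 2 to 3 and otherwise alike had 38, 5 and 16. The pendimethalin libraries were at medians of 0, 0 and 2 for the former and of 2, 0 and 3 for the latter. Of the transcripts tested, 53 still had replicate 1 at least 4 times both other S-metolachlor libraries, and 25 of these were called higher, or 0.919% of the higher calls, and 1 lower. With the 1373 transcripts kept in, 5796 of 17555 were called.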

How the data were processed

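RNA of Morchella sextelata mycelium was measured in 15 libraries, 3 in each of 5 groups. The authors deposited expected counts, estimated fragments per transcript that need not be whole, and FPKM, the same fragments scaled by transcript length and library total. The tools listed per the submitters' processing notes are Trimmomatic, Bowtie2 and DESeq, without versions, beside the mouse build mm10, to which none of the assembled transcript names belongs. Assembler and counter are not given in the sources. The 20602 names are 1 isoform each and fall into 14056 assembly genes without their last digit, whose meaning is not given.

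Where the design had assumed raw counts, the deposited expected counts were rounded, and the exclusion rule was applied to the rounded values. In R 4.3.3 with edgeR 4.0.16, filterByExpr (minimum count 10, minimum total 15) removed 1858 of the 19229 kept transcripts, and libraries were scaled by TMM. All 15 libraries, or 14 without pendimethalin replicate 3, were fitted together by quasi-likelihood, each group with its own mean, after a test on simulated data. The Benjamini-Hochberg adjustment ran over all transcripts tested, with calls under 0.05. The SE is the absolute log2 difference divided by the square root of F. Alternatives used limma 3.58.1 and DESeq2 1.42.0. Transcripts were named by rule, 2 higher and 2 lower for each of 3 properties, where the higher group averaged at least 10 CPM. Same-numbered pendimethalin and control libraries correlated in their deviations from the group means (0.14, 0.18 and 0.50), a hint from the data since the labels pair none, so a replicate block was tried there. Pendimethalin replicate 1 correlated more with control replicate 2 (0.44) than with its own number. The rule and the comparison were chosen with earlier results of these data known. With no transcript paired to a gene name or a sequence, gene lists were not tested and no sequence is printed.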

Additional observations from a re-analysis of the deposited data

Results flagged for a closer look

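The 1373 transcripts left out for S-metolachlor replicate 1 carried a signal outside the comparison. They held 0.630% of the expected counts in S-metolachlor replicate 1, 0.0262% in replicate 2 and 0.0640% in replicate 3. The control libraries were at 0.00125 to 0.00239%, and pendimethalin replicate 3, the highest pendimethalin library, at 0.00278%. All 3 S-metolachlor libraries therefore lay above the control libraries, replicate 1 by far the most, which is in part how the set was chosen. The set was at 0 in all 3 control libraries for 995 transcripts. Replicate 2 had counts for 719 of the 1373 and replicate 3 for 1038, and replicate 3 was above replicate 2 in 917. Names ending in 1 made up 1354 of the 1373. What these transcripts are was not tested.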

How the results depend on the processing

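The number of transcripts called was within 1.5 times of 5605 (5222 without pendimethalin replicate 3) under all alternatives but the test against a 2-fold difference and the single-library pendimethalin fits. Against a 2-fold difference 1936 and 1693 were called. Leaving out 1 library gave 3920 to 5738 calls, and from the fit without replicate 3 gave 3029 (without pendimethalin replicate 2), 3242 (without pendimethalin replicate 1) and up to 5505 (without control replicate 3). The low values leave 1 pendimethalin library, assumed to vary like the other groups. DESeq2 called 6630 and 6287, and limma voom with library weights 6852 and 6200. A wider exclusion limit, chosen after the data were seen, removed 211 more transcripts and left 5580 calls and 5218. With a replicate block the counts were 4942 and 4109. Same-numbered libraries of the herbicides did not deviate together (correlations of 0.02, -0.15 and -0.14), so the numbers were not taken to pair them. For pendimethalin against control, with alternatives chosen after the data were seen, calls went from 2292 to 1772 with the replicate block, and to 389 and 422 with only those groups in the fit, without and with it. Without replicate 3 they went from 3157 to 2337, and to 880 and 0. Of 261 alternative values for the named transcripts, 257 were on the same side of the threshold. Another 4 were no longer called and 0 changed sign, and the cause was not tested. Alternatives in which a named transcript was not tested are not among them. The wider exclusion limit removed TRINITY_DN8632_c0_g3_i1_1 and TRINITY_DN11282_c0_g1_i1_1. TRINITY_DN12203_c0_g1_i1_3 was not tested with only the libraries of both herbicides in the fit. Depth limits the transcripts with few fragments in one group.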

Other observations

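The groups outside the comparison were placed in the same way as the control. The trifluralin mean was nearer to pendimethalin in 96% of the transcripts called higher and 92.2% of those called lower, against 81.5% and 72.5% of all tested transcripts with the same direction of means. The acetochlor mean was nearer to pendimethalin in 88.3% and 81.5%, against 72.7% and 67.4%. The higher set held 8.99 ± 0.350% of the expected counts with trifluralin and 9.82 ± 0.475% with acetochlor (SD, n = 3 each), near the values of pendimethalin and control. The lower set held 33.2 ± 1.57% and 30.9 ± 0.515%. Acetochlor, a chloroacetanilide like S-metolachlor, thus stood with pendimethalin in both sets.

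Several named transcripts had their highest level in a group outside the comparison. TRINITY_DN7825_c0_g1_i2_5 was at 817 ± 313 CPM with trifluralin and 1187 ± 103 CPM with acetochlor, against 332 ± 301 CPM with pendimethalin. TRINITY_DN4431_c0_g1_i2_1 was at 98.9 ± 33.5 and 92.7 ± 7.84 CPM, against 13.8 ± 16.4 CPM. TRINITY_DN12203_c0_g1_i1_3 was at 77.8 ± 68.4 CPM with trifluralin and 0.462 ± 0.147 CPM with acetochlor, and its means were highest with the dinitroanilines.

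The direction of the calls differed by the last digit of the transcript name, whose meaning is not given. Names ending in 1 held 1051 higher and 531 lower calls among 4125 tested, and names ending in 4 held 198 and 856 among 3328. Names ending in 2 held 169 and 505 among 2351, those ending in 3 held 654 and 506 among 3636, and those ending in 5 held 649 and 486 among 3931. The part of the digit in the counts of higher and lower calls was not tested.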
